A study of Arabidopsis thaliana with 32 samples.

Results

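The nuclear genes for subunits of photosystem II described here are PSBO1, PSBO2, PSBP1, PSBQ1, PSBQ2, PSBR, PSBS, PSBW, PSBX and PSBY of Arabidopsis thaliana. They were chosen by locus identifier, as 10 of the 32310 loci present in both deposited tables, and FPKM was summed over the annotated transcripts of each locus in each library. FPKM counts the fragments mapped to a transcript, scaled by transcript length and by the library's total. Whole seedlings of the Col-0 accession, stratified for 2 days at 4 °C, had grown for 8 days on MS plates at 24 °C in long days, with 16 h of light and 8 h of dark. They then stayed in long days or went into continuous light, for 2 more days per the labels' protocols, whereas the series' design text gives 1 day. The 16 libraries of each regime, 32 in all, were sampled every 3 h from 2 h to 47 h after dawn or subjective dawn, with 1 library per time point. Continuous light removes the dark period and leaves the clock to set the time of day, and the question here is how these subunit genes are timed with and without the daily darkness.

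Photosystem II is the thylakoid complex that uses light to take electrons from water and release oxygen. Its reaction centre proteins are encoded in the plastid, and the nuclear genes supply extrinsic and small membrane subunits that are imported into the chloroplast. PSBO, PSBP and PSBQ dock on the lumen side and stabilise the oxygen-evolving manganese cluster, PSBR helps to hold them, PSBS switches on the harmless loss of excess light as heat, and PSBW, PSBX and PSBY are small membrane proteins. Nuclear photosynthesis genes are known targets of the circadian clock and of light signalling in leaves.

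The depth behind each value is unknown, since the tables give no read counts. Summed FPKM per library was 569534 to 587307 in long days and 578473 to 622006 in continuous light. All 6 root markers and all 4 green tissue markers were above 0 in at least 1 library of each regime, both of which whole seedlings contain. RBCS1A, a rubisco small subunit gene, was at 8.86 FPKM in the long-day library at 41 h and between 1594 and 5013 FPKM in the other long-day libraries. In bulk tissue, fewer cells of a type and less RNA per cell cannot be told apart. The labels do not say that libraries came from separate cultures, so p-values measure the spread between these libraries, which may be technical.

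Together the genes made up 1.90% to 3.62% of the summed FPKM of a library in continuous light, lowest at 41 h and highest at 5 h. In long days their share was 0.748% at 20 h and 2.30% at 32 h, the lowest and the highest. Mean levels over the 16 libraries were ordered PSBR (5006 ± 998 FPKM, SD), PSBO1 (2502 ± 408), PSBP1 (2017 ± 453), PSBX (1841 ± 401), PSBW (1741 ± 484), PSBQ1 (1188 ± 279), PSBQ2 (1050.0 ± 219), PSBO2 (784 ± 147), PSBS (671 ± 189.9) and PSBY (1.44 ± 0.558) in continuous light. The intervals of mean ± SD of neighbours in that order overlapped, other than those of PSBR and PSBO1 and of PSBS and PSBY. The order in long days was PSBO1 (1660.2 ± 569.5 FPKM), PSBR (1439 ± 594), PSBX (1041 ± 375), PSBP1 (827 ± 448), PSBW (820.2 ± 396), PSBQ2 (544 ± 223), PSBQ1 (524 ± 151), PSBO2 (489.7 ± 171), PSBS (316 ± 145) and PSBY (0.839 ± 0.621), and the mean ± SD intervals of all neighbours overlapped other than those of PSBS and PSBY. PSBR was the most abundant of 32433 loci by mean FPKM in continuous light and ranked 11 of 32311 in long days. Excluding PSBY, the lowest rank was that of PSBS, 71 and 180. The tables come from separately merged transcript sets, so levels in the 2 regimes are given side by side and were not tested against each other.

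**Figure D1:**
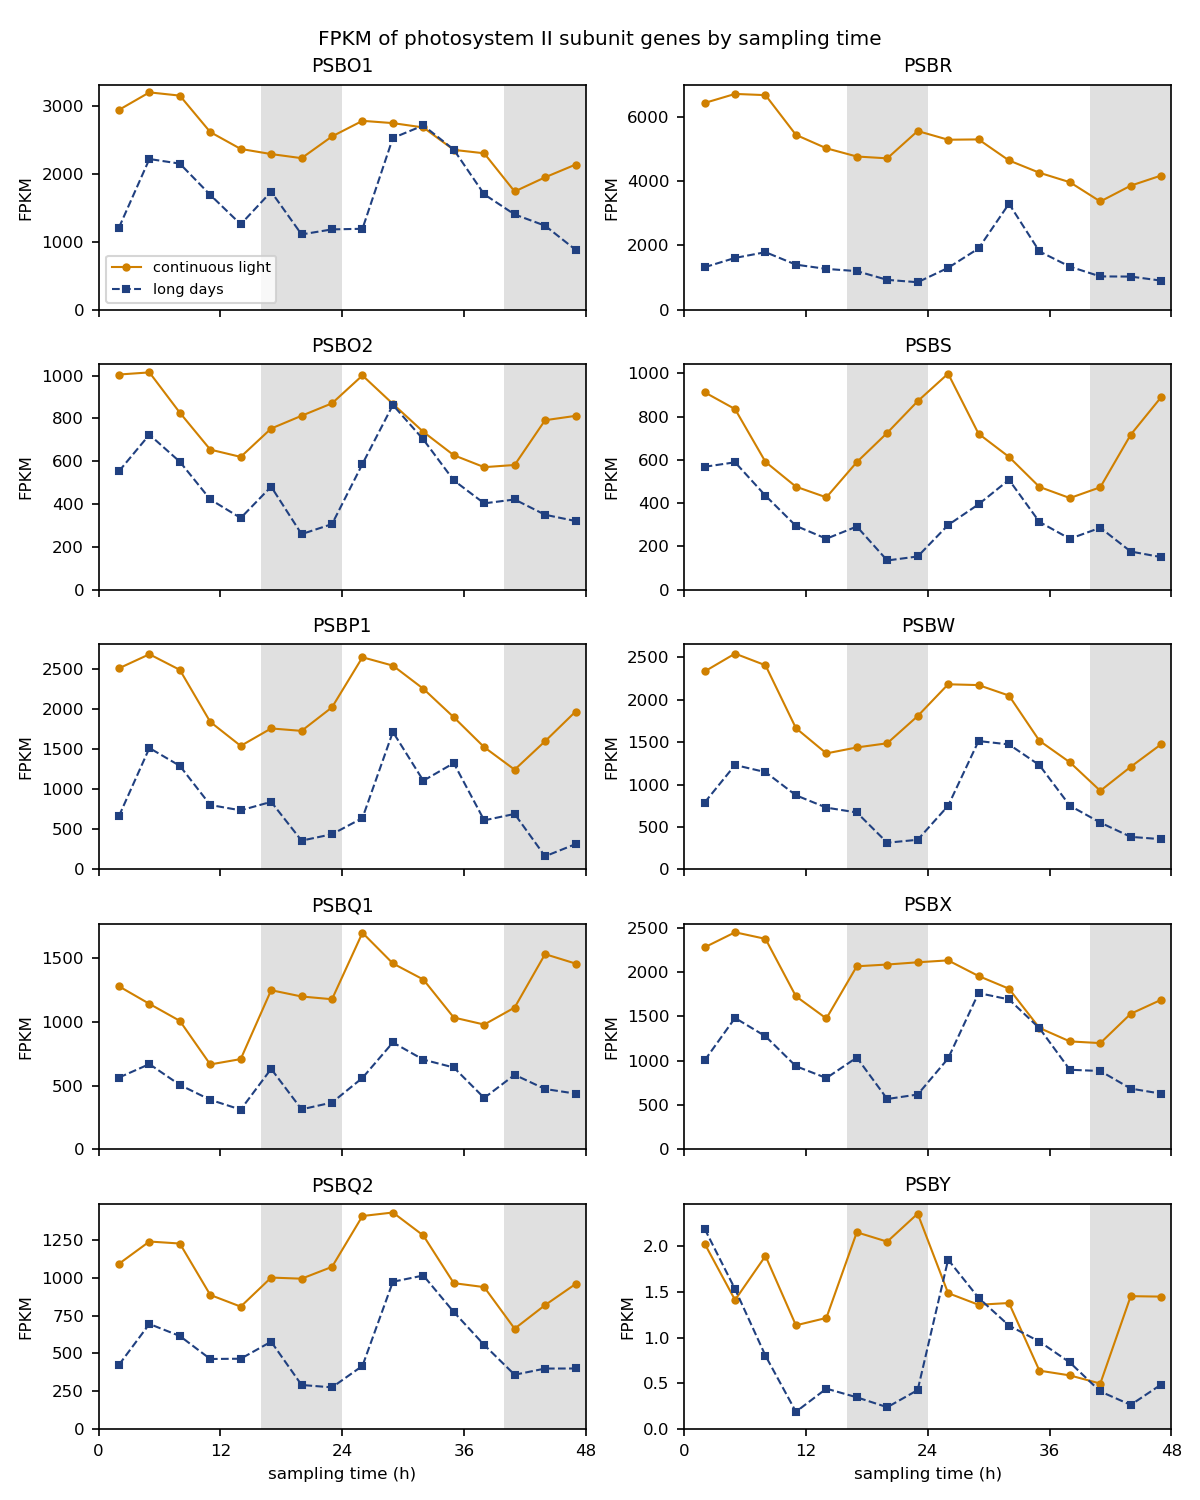
FPKM (linear axis from 0) of each of the 10 genes against sampling time in h, with 1 point per library; circles are continuous light, squares long days, and grey marks the hours that are dark in long days. In long days the highest value of every gene is at a daytime hour, and in continuous light PSBO2, PSBQ1 and PSBS are already high again in the late subjective night.

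PSBO1 and PSBO2 encode the 2 forms of the manganese-stabilising protein. PSBO1 (AT5G66570, chr5:26568572-26570461 of TAIR10.1, + strand, 3 exons) ranged from 1740.3 FPKM at 41 h to 3198 FPKM at 5 h in continuous light, with a median of 2458. Its long-day values ran from 884 FPKM at 47 h to 2712 FPKM at 32 h, with a median of 1546. PSBO2 (AT3G50820, chr3:18890874-18892508, − strand, 3 exons) ranged from 572 FPKM at 38 h to 1015 FPKM at 5 h in continuous light and from 259 FPKM at 20 h to 863 FPKM at 29 h in long days. The low point of PSBO1 in continuous light thus fell in the second subjective night, that of PSBO2 at the end of the second subjective day. A 24 h cosine fitted to log2(FPKM + 1) of PSBO1 passed the rhythm test in continuous light with a 1.48-fold peak to trough and a peak at 5.74 ± 0.72 h (SE, adjusted p = 0.00401, limma's moderated F test). In long days it passed with 2.16-fold and a peak at 8.94 ± 0.71 h (adjusted p = 0.00482, limma). PSBO2 peaked at 2.11 ± 0.49 h with 1.61-fold in continuous light (adjusted p = 0.00015, limma) and at 6.58 ± 0.72 h with 2.16-fold in long days (adjusted p = 0.00508, limma).

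PSBP1 (AT1G06680, chr1:2047634-2049439, + strand, 4 exons) encodes the main form of the PsbP protein, which lowers the calcium and chloride needed for oxygen evolution. Its FPKM in continuous light ranged from 1245 at 41 h to 2685 at 5 h, with a median of 1934. In long days it ranged from 164 at 44 h to 1716 at 29 h, 10.4-fold apart, with a median of 715. Without the library at 44 h the lowest value was 316 FPKM at 47 h, and the range 5.44-fold. The rhythm was 1.82-fold with a peak at 4.42 ± 0.42 h in continuous light (adjusted p = 3.61e-05, limma) and 4.15-fold with a peak at 8.30 ± 0.67 h in long days (adjusted p = 0.00308, limma), the widest swing of the 9 genes tested there. At 44 h in long days a transcript assembled from the reads across PSBP1 and its neighbour AT1G06670 carried a further 258 FPKM, 61.1% of the summed total at the locus, and such a transcript was above 0 in 2 libraries only. With such transcripts counted, the long-day range of PSBP1 was likewise 5.44-fold, and rhythm passed for 8 and the night contrast for 7 of 9 genes in long days. Over all genes rhythm then passed for 5890 of 18682 and the night contrast, in either direction, for 3030. The rhythm of PSBP1 in long days passed without any 1 library, with a fitted amplitude of 0.863 to 1.12 on the log2 scale. That of PSBW then ran from 0.914 to 1.01, so which of these genes swung more depends on the library left out. The shorter transcript AT1G06680.2 held 0.312% to 18.4% of the gene's FPKM in long days, and in continuous light 0.0335% to 0.195%. Its lowest share in long days was at 44 h, the library with the 258 FPKM above, and the highest at 38 h.

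PSBQ1 (AT4G21280, chr4:11334352-11335815, + strand, 3 exons) and PSBQ2 (AT4G05180, chr4:2671523-2673243, − strand) encode 2 forms of the smallest extrinsic protein of the oxygen-evolving complex. Their coding sequences are 76.5% identical over 699 aligned columns, with a longest identical run of 31 nt, against 83.6% and 32 nt for PSBO1 and PSBO2. Within the aligned coding sequences, a read longer than such a run would differ between the copies at 1 base or more. How fragments were shared between the copies was not tested. PSBQ1 ranged from 665 FPKM at 11 h to 1697 FPKM at 26 h in continuous light and from 311 at 14 h to 838 at 29 h in long days. PSBQ2 ranged from 664 FPKM at 41 h to 1433 FPKM at 29 h in continuous light and from 276 at 23 h to 1016 at 32 h in long days. The lowest library of PSBQ1 was in the afternoon in both regimes, that of PSBQ2 in the night hours. In long days PSBQ1 was almost as low in the dark, at 313 FPKM at 20 h. In the first cycle of continuous light PSBQ2 was lowest at 14 h, at 810 FPKM. The rhythm of PSBQ1 was 1.69-fold with a peak at 0.44 ± 0.91 h in continuous light (adjusted p = 0.0191, limma), and without the library at 26 h its adjusted p was 0.0502. In long days the fitted curve of PSBQ1 did not pass (1.54-fold, peak at 5.91 ± 1.6 h, adjusted p = 0.196, limma). PSBQ2 passed in both, with 1.63-fold and a peak at 4.57 ± 0.68 h in continuous light (adjusted p = 0.00248, limma) and 2.32-fold and 8.42 ± 0.77 h in long days (adjusted p = 0.00782, limma).

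The promoters of PSBQ1 and PSBQ2 are shown because these 2 of the 10 genes hold, within 250 bases, a G-box, the CACGTG element bound by bZIP and bHLH factors of light signalling. They are the 250 bases before the annotated transcript start in TAIR10.1 (RefSeq), 5′ to 3′ on the gene's strand, at chr4:11334102-11334351 (+ strand) for PSBQ1 and chr4:2673244-2673493 (− strand) for PSBQ2. Capitals mark CACGTG and, in PSBQ2, the I-box core GATAAG.
PSBQ1: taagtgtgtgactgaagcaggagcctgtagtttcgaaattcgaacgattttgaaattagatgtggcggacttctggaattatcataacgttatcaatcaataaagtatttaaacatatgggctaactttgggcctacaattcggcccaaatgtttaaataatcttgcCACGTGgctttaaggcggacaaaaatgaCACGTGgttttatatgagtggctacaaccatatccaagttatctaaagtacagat
PSBQ2: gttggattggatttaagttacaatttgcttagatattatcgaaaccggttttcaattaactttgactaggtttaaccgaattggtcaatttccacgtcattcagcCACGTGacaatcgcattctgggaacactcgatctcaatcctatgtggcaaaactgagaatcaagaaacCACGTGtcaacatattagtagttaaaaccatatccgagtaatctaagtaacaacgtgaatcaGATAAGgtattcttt
PSBQ1 has CACGTG at −83 to −78 and at −55 to −50 from the start, and PSBQ2 has it at −145 to −140 and at −77 to −72, with GATAAG at −15 to −10. The motifs were searched on both strands in the same window of 27443 promoters: CACGTG was in 6.49% of them and GATAAG in 12.3%. The evening element AAAATATCT, in 2.36% of all promoters, and the CCA1-binding site AAAAATCT, in 6.69%, were in none of the 10 windows. These are matches of letters and show no binding.

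PSBR (AT1G79040, chr1:29735952-29737009, + strand, 4 exons) ranged from 3365 FPKM at 41 h to 6706 FPKM at 5 h in continuous light, with a median of 4889, and from 857 at 23 h to 3295 at 32 h in long days, with a median of 1313. The first 3 libraries of continuous light, at 2, 5 and 8 h, held 6424, 6706 and 6668 FPKM, and no later library exceeded 5553. Its 24 h curve did not pass in continuous light (1.47-fold, peak at 5.0 ± 1.1 h, adjusted p = 0.0552, limma), although it did without the library at 14, 17 or 32 h (adjusted p = 0.0468, 0.0376 and 0.0368, limma). In long days it passed with 2.28-fold and a peak at 8.22 ± 0.59 h (adjusted p = 0.00125, limma).

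PSBS (AT1G44575, listed in RefSeq as NPQ4, chr1:16870221-16873427, + strand) encodes the pH-sensing protein of energy-dependent quenching. In continuous light it ranged from 423 FPKM at 38 h to 999 FPKM at 26 h, with a median of 665, and its values were higher at the end of each subjective night than at its start, 871 at 23 h against 589 at 17 h and 890.0 at 47 h against 473 at 41 h. In long days it ranged from 135 FPKM at 20 h to 589 FPKM at 5 h, with a median of 293, and stood at 153 and 150.4 FPKM at 23 and 47 h. In long days the order was the opposite, with the lower value at the end of each night. PSBS had the widest swing in continuous light, 2.17-fold with a peak at 1.15 ± 0.25 h (adjusted p = 3.35e-07, limma), and 2.73-fold with a peak at 7.17 ± 0.79 h in long days (adjusted p = 0.00908, limma). Of its 3 annotated transcripts AT1G44575.1 was listed at 0 throughout and the other two shared the FPKM, with AT1G44575.3 at 7.69% to 61.0% in long days, and in continuous light at 46.1% to 52.1%. Transcripts assembled across PSBS and AT1G44740 were above 0 in all 16 long-day libraries and reached 180.6 FPKM at 29 h. In that library the share of AT1G44575.3 was at its lowest, 7.69%, and whether these are linked was not tested. With the transcripts across AT1G44740 counted, PSBS stood at 432 in place of 299 FPKM at 26 h and at 575 in place of 395 FPKM at 29 h. The long-day peak at 7.17 h was fitted without them.

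PSBW (AT2G30570, chr2:13019028-13020311, − strand, 2 exons) is linked to the stability of photosystem II supercomplexes. It ranged from 927 FPKM at 41 h to 2546 FPKM at 5 h in continuous light and from 315 at 20 h to 1514 at 29 h in long days. Its rhythm was 2.06-fold with a peak at 4.86 ± 0.47 h in continuous light (adjusted p = 0.0001, limma) and 3.76-fold with a peak at 8.22 ± 0.41 h in long days (adjusted p = 7.33e-05, limma), the lowest p of the genes there. PSBX (AT2G06520, chr2:2587729-2588448, − strand, 1 exon), a small subunit near cytochrome b559, ranged from 1198 FPKM at 41 h to 2448 FPKM at 5 h and, in long days, from 567 at 20 h to 1762 at 29 h. PSBX peaked at 3.02 ± 1.0 h with 1.57-fold in continuous light (adjusted p = 0.0328, limma) and at 7.71 ± 0.64 h with 2.29-fold in long days (adjusted p = 0.00238, limma). Leaving out 1 library ended the call of PSBX in continuous light in 7 of 16 fits, for the libraries at 2, 5, 14, 23, 26, 38 and 41 h, with an adjusted p of up to 0.0867. PSBY (AT1G67740, chr1:25394031-25395249, − strand, 1 exon), the precursor of 2 small membrane proteins, ranged only from 0.497 to 2.35 FPKM in continuous light and from 0.189 to 2.19 in long days. It did not pass in continuous light (1.49-fold, adjusted p = 0.136, limma) and was not tested in long days, where its mean was under 1 FPKM.

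A 24 h rhythm passed at an adjusted p under 0.05 for 8 of 10 genes in continuous light, beside 23% of the 17766 genes tested. In long days it passed for 8 of 9, beside 24.5% of 18016. The median peak to trough of the members was 1.62-fold in continuous light, against 1.27-fold over all genes tested, and 2.29-fold in long days, against 1.31-fold. Fitted peaks of the 10 genes lay between 0.44 and 5.74 h in continuous light and those of the 9 genes between 5.91 and 8.94 h in long days. The fitted peaks of all 9 were later in long days, by 3.20 ± 1.0 h (SE) for PSBO1 to 6.02 ± 0.83 h for PSBS, with a median of 3.88 h. Of these 9, PSBQ1 and PSBR had no rhythm call in one of the regimes. Of the 1794 genes called in both regimes, 70.0% peaked later in long days, with a median shift of 1.12 h. Quantile normalization gives each library the same set of values, so that a gene keeps only its rank. By mean level, every member but PSBY stood within the top 71 loci under continuous light, and within the top 180 under long days. A swing shared by the most abundant genes can be removed by this scaling itself. A call lost or a peak moved under it therefore cannot decide whether a rhythm was present. This limit holds for each later result under quantile normalization. With this scaling 2 of 10 genes passed in continuous light (PSBO2 and PSBS), beside 3246 of 17766 genes. In long days 4 of 9 passed (PSBO2, PSBP1, PSBS and PSBW), beside 16.2%. The fitted peaks of PSBO1, PSBR and PSBX in continuous light moved to 15.4, 14 and 20.5 h and in long days to 10.3, 9.40 and 9.16 h, so that 6 of the 9 peaked later in long days and these 3 earlier, none of the 3 with a rhythm call under that scaling. Under an F test over the 8 hours of the day, without the cosine, 2 of 10 passed in continuous light (PSBP1 and PSBS), beside 4.55% of all genes tested. In long days 7 of 9 passed it, beside 3026 of 18016 genes.

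**Figure D2:**
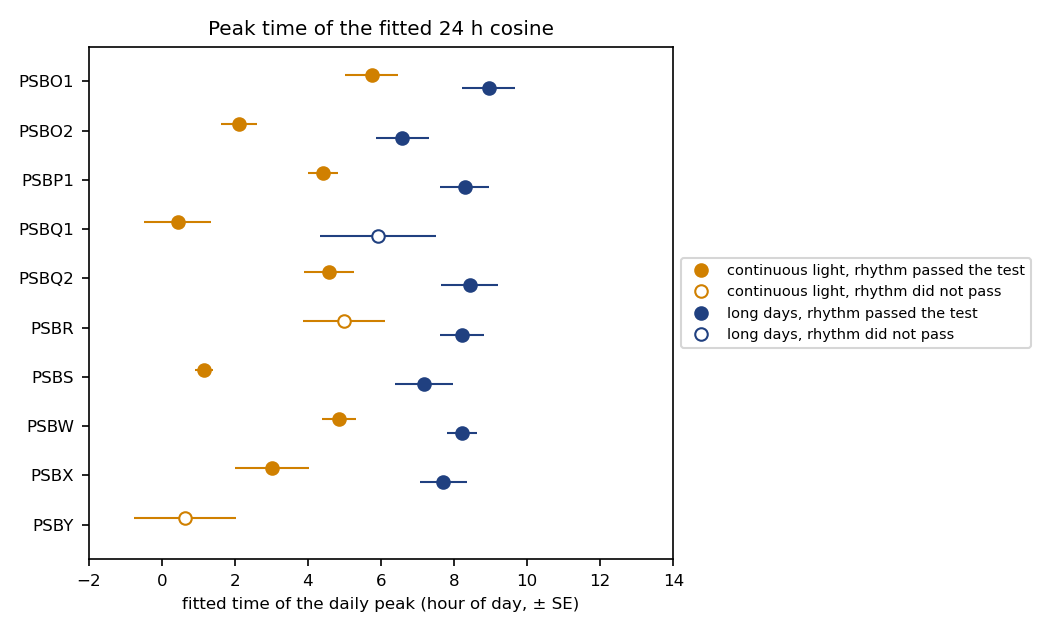
Fitted peak time of the 24 h cosine (hour of day, 0 is dawn or subjective dawn; bars are SE) for each gene in continuous light and in long days; filled points passed the rhythm test and open points did not. As deposited, the fitted peak of each of the 9 genes tested in both regimes is later in long days, with the widest gap for PSBS, 1.15 h against 7.17 h; under quantile normalization those of PSBO1, PSBR and PSBX are earlier. The sampled hour with the highest mean is 5 h in both regimes for PSBP1, PSBW and PSBQ2.

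The difference in rhythm between regimes was tested as an interaction over the 32 libraries, so that a constant offset between the tables cancels. It passed for PSBW (adjusted p = 0.00185), PSBS (0.00245), PSBP1 (0.0165), PSBO2 (0.0177) and PSBX (0.0287, all limma), which is 5 of 9 genes, beside 5.05% of the 17264 tested. The 2 fitted curves differ in timing and in size, and the interaction does not separate these. The amplitude of PSBP1 was 2.37 times as large in long days as in continuous light, that of PSBW 1.83 times and that of PSBS 1.29 times, each on the log2 scale. The interaction did not pass for PSBR (adjusted p = 0.0645), PSBQ2 (0.0680), PSBO1 (0.0763) or PSBQ1 (0.193, all limma), which does not show that their rhythms are alike. The call of PSBX was lost, leaving 4 of 9, without the library at 20 or 35 h of continuous light or at 20, 23 or 47 h of long days (adjusted p up to 0.0611, limma). Without the long-day library at 11 h, 8 of 9 genes passed, beside 887 of the 17264. Under quantile normalization 3 passed (PSBP1, PSBS and PSBW), beside 3.82% of all genes tested.

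Night was then set against day. The 6 libraries at 17, 20, 23, 41, 44 and 47 h, dark in long days, were compared with the other 10. The spread in this test includes the changes over the hours within night and within day. In long days 7 of 9 genes were lower in the dark hours, beside 2.11% of 18016 genes called lower. Among them PSBW fell from 729 to 1514 FPKM by day, with a median of 1011, to 315 to 672 FPKM in the dark, with a median of 371. Every dark library of PSBW was thus below every other library, with a log2 difference of −1.26 ± 0.21 (SE, adjusted p = 0.00177, limma). PSBR was the other gene without overlap, at 857 to 1202 FPKM in the dark and 1270.5 to 3295 by day (log2 difference −0.72 ± 0.18, adjusted p = 0.0167, limma), and such non-overlap was found in 0.472% of all genes tested. PSBP1 differed by −1.24 ± 0.33 (adjusted p = 0.0234, limma), with 164 to 844 FPKM in the dark and 613 to 1716 by day, and its call was lost without the library at 20, 44 or 47 h (−0.98 and adjusted p = 0.0623 without 44 h). PSBS differed by −0.95 ± 0.24 (adjusted p = 0.0186, limma), with 135 to 292 FPKM against 235 to 589, and 4 of its 6 dark libraries lay below all others. PSBX, PSBQ2 and PSBO2 were lower by −0.72 ± 0.19, −0.71 ± 0.22 and −0.65 ± 0.19 on the log2 scale (adjusted p = 0.0237, 0.0483 and 0.0388, limma), and their groups overlapped. The dark libraries inside the daytime range were that at 17 h for PSBQ2, those at 17 and 41 h for PSBX, and those at 17, 41 and 44 h for PSBO2. Without 1 library, the call of PSBQ2 was lost in 11 of 16 fits (adjusted p up to 0.115), that of PSBO2 in 10 (up to 0.101), that of PSBX in 4 (up to 0.0645) and that of PSBS in 1 (0.0528, limma), whereas PSBR and PSBW passed in all 16. PSBO1 (−0.56 ± 0.21, adjusted p = 0.0952) and PSBQ1 (−0.24 ± 0.21, adjusted p = 0.525, limma) did not pass. The median of the 9 genes was −0.72, against 0.09 over all genes tested.

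**Figure D3:**
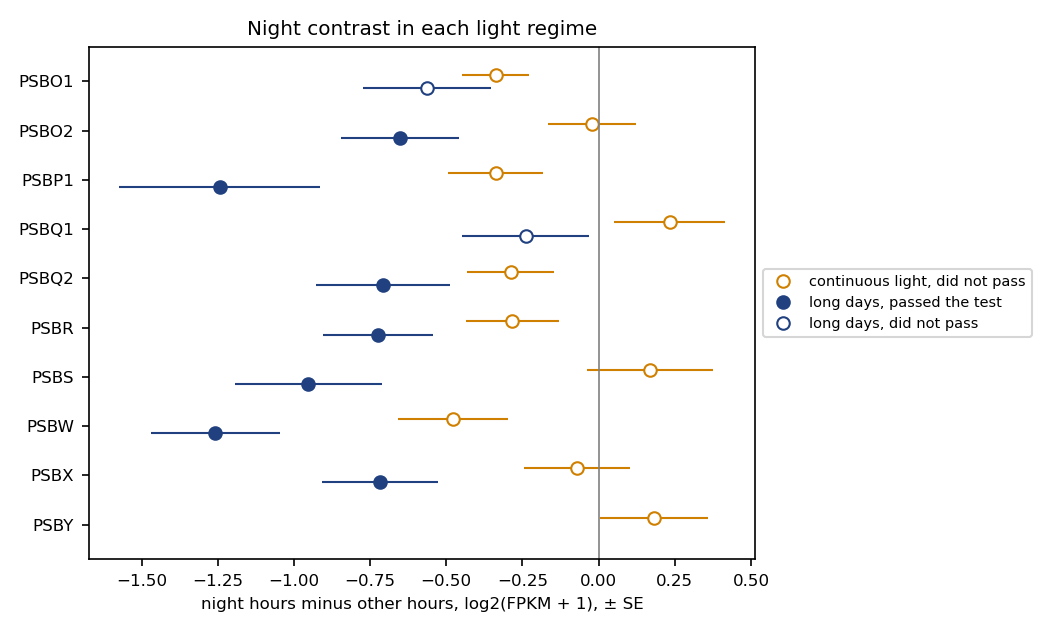
Night hours minus other hours in log2(FPKM + 1), with SE, for each gene in both regimes (6 against 10 libraries each); filled points passed the test and open points did not. All 9 long-day points lie below 0, whereas the 10 points of continuous light lie on both sides, from −0.48 for PSBW to 0.23 for PSBQ1, and none passed.

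In continuous light none of 10 genes passed the night contrast with limma, beside 1.08% of 17766 genes called lower, and 3 had an unadjusted p under 0.05 (PSBO1, PSBW and PSBP1). Non-overlap with the night lower, found in 0.270% of all genes tested there, was found in none of them. Log2 differences ran from −0.48 ± 0.18 for PSBW to 0.23 ± 0.18 for PSBQ1, and those of PSBQ1, PSBS and PSBY were above 0. The difference of the night contrast between regimes passed for 1 of 9, PSBS, at −1.12 ± 0.33 (adjusted p = 0.0475, limma), beside 0.921% of 17264 genes. That call was lost when the libraries were scaled to equal medians, with no minimum mean, and in 21 of 32 fits without 1 library, where its adjusted p ranged from 0.0227 to 0.103. The count of 7 in long days was 2 without the library at 20 h, 4 without that at 23 h and 3 without that at 44 or 47 h. Over all 18016 genes, calls in either direction were 1365 without 20 h, 1680 without 23 h and 1260 without 44 h, in place of 2105. The members' count was 2 under quantile normalization (PSBS and PSBW), beside 490 genes of the whole table called lower. There the log2 difference of PSBR was −0.14 (adjusted p = 0.673) and that of PSBX −0.17 (adjusted p = 0.527, limma). With scaling to equal medians 771 genes of the whole table were higher in the dark and 505 lower, against 1725 and 380 as deposited, and 6 of the 9 genes passed.

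Beside the long-day contrast, the summed level of the 4 green tissue markers was 1199.8 to 4562 FPKM in the dark libraries (from 3204 without that at 41 h, where RBCS1A was low) and 2908 to 10567 FPKM in the others, with LHCA1 and PSAD2 called lower and no marker at 0 throughout. The 6 root markers summed to 2618 to 3857 FPKM in the dark and 2117 to 3647 FPKM by day, and none of the 5 tested passed. Of the 4 green tissue markers, 4 were themselves rhythmic in continuous light and 3 in long days, beside 23% and 24.5% of all genes tested. Their sum therefore cannot tell the amount of green tissue from the daily timing of these genes. The part of tissue make-up in the night contrast was not tested.

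Time in the regime was examined by setting the second 24 h against the first, hour by hour. In continuous light 5 of 10 genes passed. PSBR was lower at 8 of 8 hours, with 5659 ± 836 FPKM (SD) over the first cycle and 4353 ± 681 over the second, a log2 difference of −0.38 ± 0.07 (SE, adjusted p = 0.00945, limma). PSBX (−0.37 ± 0.08, adjusted p = 0.0149), PSBW (−0.25 ± 0.07, adjusted p = 0.0407) and PSBY (−0.41 ± 0.11, adjusted p = 0.0374, limma) were also lower at 8 of 8 hours. These 4 stand beside 7.73% of all genes called lower. PSBQ1 was higher at 7 of 8 hours, with 1052 ± 240.3 FPKM and then 1324 ± 258, a log2 difference of 0.35 ± 0.08 (adjusted p = 0.0256, limma), beside 6.99% of genes called higher. In long days none of 9 passed with limma (beside 12.8% of 18016 genes in either direction), and PSBO2 and PSBQ1 had an unadjusted p under 0.05.

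Under quantile normalization 3 of the 10 genes passed in continuous light (PSBX, PSBY and PSBQ1), beside 14.8% of all genes tested, and the log2 difference of PSBR was −0.16 (adjusted p = 0.304) and that of PSBW −0.18 (adjusted p = 0.190, limma). With no minimum mean 3 passed, beside 2261 of 26363 genes. Without the hour of the day as a block none passed with limma (lowest adjusted p = 0.0924, with 3 at an unadjusted p under 0.05). The spread in that fit includes the daily course. Leaving out 1 library gave 2 or 3 of the 10 genes in 14 of 16 fits, beside 1472 to 2004 of the 17766 genes. It gave 6 without the library at 17 or 41 h, beside 2726 and 2727. PSBR and PSBX passed in all 16. In long days 3 of 9 (PSBO2, PSBQ1 and PSBQ2, all higher) passed without the library at 17 or 41 h, beside 2076 and 2078 of the 18016 genes. Among the plastid-encoded reaction centre genes, 4 of 4 tested were higher in the second cycle of continuous light, beside 6.99% of all genes. PSBD rose most (log2 difference 2.23 ± 0.19, adjusted p = 0.000886, limma). The 5 plastid genes summed to 4.71 to 7.81 FPKM in the first cycle and 16.6 to 39.0 FPKM in the second, and to 359 to 534 FPKM in long days. The part of this shift of plastid RNA in the cycle contrast was not tested.

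The 2 forms of PSBO and of PSBQ were compared within each library as a ratio of FPKM + 1, where the scaling of the library cancels. PSBO1 exceeded PSBO2 in all 32 libraries, 2.46-fold at 44 h to 4.02-fold at 38 h in continuous light and 2.03-fold at 26 h to 4.61-fold at 35 h in long days. Its lowest point in each cycle came at 20 and 44 h in continuous light and at 2 and 26 h in long days. A 24 h cosine passed in continuous light, with a peak at 10.6 ± 0.40 h and 1.5-fold peak to trough (adjusted p = 4e-05, permutation test over 100000 orders of the library times, adjusted over 4 tests; the raw p of 1e-05 is the smallest it can give), and in long days, with a peak at 13.8 ± 0.97 h and 1.60-fold (adjusted p = 0.0043, permutation test). PSBQ1 to PSBQ2 ran from 0.75 at 11 h to 1.86 at 44 h in continuous light and from 0.669 at 14 h to 1.62 at 41 h in long days, so either form could be the more abundant. Its cosine peaked at 20.7 ± 0.88 h with 1.68-fold in continuous light and at 22.3 ± 0.86 h with 1.76-fold in long days (adjusted p = 0.0043 in both, permutation test). All 4 tests passed without any 1 library. These permutations take the libraries of a regime as exchangeable.

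**Figure D4:**
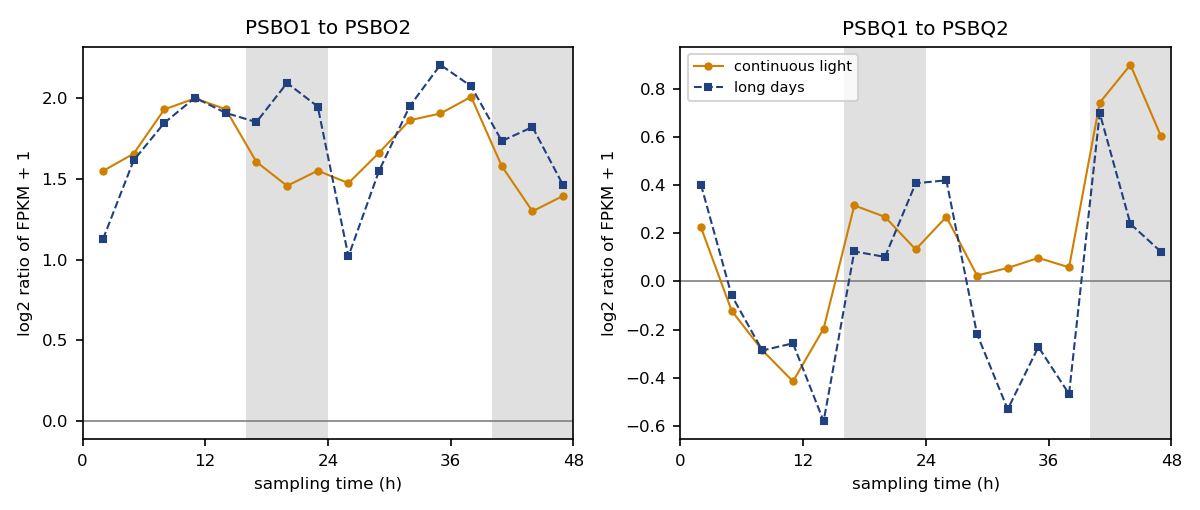
log2 ratio of PSBO1 to PSBO2 (left) and of PSBQ1 to PSBQ2 (right), each FPKM + 1, against sampling time in h, with 1 point per library in continuous light (circles) and long days (squares); grey marks hours dark in long days and the line at 0 marks equal levels. PSBO1 exceeds PSBO2 at every point. The log2 ratio of PSBQ1 to PSBQ2 is below 0 from 5 to 14 h in both regimes and again from 29 to 38 h in long days, and stays above 0 from 17 h on in continuous light.

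Members varied in how closely they followed one another, given as a description over 16 libraries that share scaling. The correlation of a gene with the mean of the other 8 was lowest for PSBQ1, 0.377 in continuous light and 0.753 in long days. It was highest for PSBP1 in continuous light (0.942) and for PSBX in long days (0.995). Among 17210 genes outside the lists, the 6 profiles most like the mean of the 9 members, by the smaller of the Pearson correlations in the 2 regimes over 16 libraries each, were those of PSAE-1 (0.982), AT1G21500 (0.971), LHCA2 (0.953), PSAH2 (0.950), PSI-P (0.944) and LHCB6 (0.941). PSAE-1, PSAH2 and LHCA2 encode subunits and an antenna protein of photosystem I, and LHCB6 encodes the minor antenna protein CP24 of photosystem II.

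Other genes of the complex and its upkeep were counted from lists. Each count of rhythmic genes stands beside 23% of all genes tested in continuous light and 24.5% in long days. Of 6 further nuclear subunits and homologs, 4 were rhythmic in continuous light and 1 in long days. PSB28, named after a cyanobacterial assembly protein, had the widest swing of those that passed (2.45-fold, peak at 21.5 ± 0.38 h, adjusted p = 1.48e-05, limma) in continuous light, and PSB27, which binds during assembly and repair, was the one called in long days (2.56-fold, peak at 8.01 ± 0.43 h, adjusted p = 0.00011, limma). PSBTN, a small lumenal subunit, was listed at 0.159 to 861 FPKM in long days and 33.6 to 2133 FPKM in continuous light, and its rhythm did not pass in either (adjusted p = 0.751 and 0.760, limma). Of 9 assembly factors tested, 1 was rhythmic in continuous light (LPA3, 1.22-fold, adjusted p = 0.0158, limma) and none in long days. HCF136, another assembly factor, had a mean under 1 FPKM in both tables and was not tested. Of 4 plastid-encoded core genes none was rhythmic in either regime, the most abundant being PSBD.

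The repair factors, which take part in replacing the damaged D1 protein, were rhythmic in 7 of 9 cases in each regime. Of all genes tested, 23% were rhythmic in continuous light and 24.5% in long days. LQY1 was called in continuous light with 2.05-fold and a peak at 1.48 ± 0.48 h (adjusted p = 0.000142, limma), and TLP18.3 in long days with 3.09-fold and a peak at 7.20 ± 0.41 h (adjusted p = 7.62e-05, limma). TLP18.3 was lower in the dark hours by −1.03 ± 0.19 on the log2 scale (adjusted p = 0.00351, limma), as was FTSH2, and the other 7 did not pass. That is 2 of 9, beside 2.11% of all genes called lower. Of 8 genes of thylakoid phosphorylation and energy quenching, 6 were rhythmic in each regime, beside the same 23% and 24.5%. ZEP, the zeaxanthin epoxidase that undoes the xanthophyll change working with PSBS, swung 3.23-fold in continuous light (peak at 2.58 ± 0.32 h, adjusted p = 2.92e-06, limma) and 5.71-fold in long days (peak at 5.28 ± 0.30 h, adjusted p = 7.07e-06, limma). In the dark hours ZEP and STN7, the state-transition kinase, were lower (−1.42 ± 0.32 and −0.69 ± 0.17), and STN8, the core-protein kinase, and its opposing phosphatase PBCP were higher (0.36 ± 0.09 and 0.40 ± 0.10, log2). That is 2 of 8 lower and 2 of 8 higher, beside 380 and 1725 of the 18016 genes tested.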

How the data were processed

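Total RNA was sequenced, and the authors deposited the FPKM of transcripts in 1 table per light regime, as named in the file headers. The build was TAIR 10 per the submitters' processing notes. Aligner, quantifier, strandedness and RNA selection: not given in the sources used here. The tables hold 66968 and 70053 transcripts, merged separately. FPKM of annotated transcripts was summed per locus, and assembled transcripts were left out. Values moved to log2(FPKM + 1), so folds of low genes are understated. Every gene whose table mean reached 1 FPKM entered a limma fit (version 3.58.1, R 4.3.3, trended eBayes) over the whole table, with Benjamini-Hochberg adjustment and calls at an adjusted p under 0.05. Rhythm used a cosine and sine of 24 h, and the cycle contrast used the hour of the day as a block. Both were tested on simulated data. Positions, names and promoters are RefSeq's on TAIR10.1, whose gene bounds match the files for 99.9% of nuclear loci.

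All 10 members are named. Of each other list, up to 3 genes with the largest change among those passing, or the most abundant, are named. The likeness rule named 6 genes outside the lists. Members and lists were chosen with earlier results of these data known. Alternatives covered scaling, pseudocount, minimum mean, assembled transcripts, single libraries and the design. One of them, counting transcripts assembled across a member and a neighbour, was chosen after seeing the data.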

Additional observations from a re-analysis of the deposited data

Results flagged for a closer look

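Rhythm differed between regimes, by the interaction test, for 5 genes: the fitted daily curves were apart by 0.53 (PSBO2), 0.88 (PSBP1), 0.92 (PSBS), 0.74 (PSBW) and 0.58 (PSBX) on the log2 scale, the length of the difference of the cosine and sine terms. For PSBS the night contrast differed too, by −1.12.

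Signal was also found in transcripts that the gene values leave out, those assembled across a gene and its neighbour in long days. It reached 258.0 FPKM for PSBP1 at 44 h, 220.7 FPKM for PSBO1 at 14 h and 180.6 FPKM for PSBS at 29 h. In continuous light no such transcript was above 0 at these genes. Which of the merged genes the reads came from was not tested.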

How the results depend on the processing

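Of 2066 recomputed values of single genes and of the PSBO and PSBQ ratios, 1869 kept their direction and side of the threshold, 141 lost the call, 30 gained it and 26 reversed. Those kept were 1418 of 1552 with 1 library left out and 451 of 514 under other settings. They include values that passed in neither fit. With FPKM scaled to equal library medians, 1 gene differed between cycles in long days and 0 in night contrast between regimes. Quantile normalization gave 2 genes rhythmic in continuous light, 4 in long days, 3 differing in rhythm, 2 lower in the dark of long days, 2 differing in night contrast, and 3 and 2 differing between cycles in continuous light and long days. No minimum mean gave 3 genes differing between cycles in continuous light and 0 differing in night contrast. Adding assembled transcripts, at the locus or across neighbours, gave 1 gene between cycles in long days in each case. The 8-hour F test gave 2 rhythmic genes in continuous light, where 808 of all genes passed in place of 4087. In long days it gave 7, where 3026 of all genes passed in place of 4408. The cause of these changes was not tested.

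Values that reversed under quantile normalization were, in continuous light, the amplitudes of PSBO1 (0.16), PSBR (0.25) and PSBX (0.19), whose peaks moved by over 6 h, the night contrasts of PSBO1 (0.088), PSBO2 (0.0031), PSBP1 (0.016), PSBR (0.031) and PSBX (0.32), and the cycle contrasts of PSBP1 (0.011) and PSBS (0.028). In long days they were the night contrast of PSBQ1 (0.035) and the cycle contrast of PSBS (0.0054), the latter also with transcripts across neighbours added (0.025). None of these reversed values passed its test. Without 1 library, the night contrast in continuous light ran from −0.070 to 0.057 for PSBO2 and from −0.14 to 0.037 for PSBX, and the cycle contrast from −0.061 to 0.076 for PSBQ2 in continuous light and from −0.18 to 0.0086 for PSBS in long days.

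Without 1 library the counts of genes passing ran from 6 to 9 (rhythm, continuous light), 8 to 8 (rhythm, long days), 4 to 8 (rhythm difference), 2 to 7 (night, long days), 0 to 0 (night, continuous light), 0 to 1 (night difference), 2 to 6 (cycles, continuous light) and 0 to 3 (cycles, long days), and all 4 ratio tests passed. Over all genes, 4408 were rhythmic in long days, and 2870 with equal medians, 2920 under quantile normalization. Genes differing in rhythm were 871, and 1364 with assembled transcripts added. The night contrast of long days called 2105, and 1276 and 1282 under the scalings. The night difference called 676, and 1058 with assembled transcripts. Night in continuous light called 667, and 430 under quantile normalization.

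Libraries of the same time in both regimes did not deviate together (correlations of residuals −0.080 to 0.056, 0 of 16 best with their own number). With sampling time as a replicate block, the rhythm difference was called for 5 and the night difference for 1 of the 9 genes, and for 601 and 1089 of all genes. Without the block of hours, no replicate block, 0 genes differed between cycles in either regime, and 1292 and 1059 of all genes did in place of 2616 and 2306. Unknown depth limits any statement on PSBY, near 1 FPKM. HCF136, at no more than 0.483 FPKM, and PSBTN, down to 0.159 FPKM in long days, also had values under 1 FPKM. Whether such values reflect low transcript levels or the merged transcript sets was not tested.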
